A study of Sus scrofa with 28 samples.

Results

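Expression in the left apical lung lobe was compared between 3 swine that had inhaled a low dose of sulfur mustard vapor and 3 swine that had breathed air. The comparison used 6 of the series' 28 arrays, chosen by the lobe and exposure in the labels, with 1 array for each animal. The low animals (31, 32 and 33) received 60 µg/kg of the vapor, abbreviated HD in the labels, over 10 min, and the air animals (28, 29 and 44) received no agent. All were large female swine, premedicated, anesthetized, intubated and exposed while supine after 12 h without food, and all lungs were taken 12 h after exposure. Strain and age are not given in the sources used here. RNA came from whole lobe tissue, so a value stands for the mixture of airway, vessel, alveolar and blood cells in the piece taken, and fewer cells of a type cannot be told apart from less RNA per cell. A medium dose of 100 µg/kg (apical arrays of 3 animals) and the left median and caudal lobes of the same low and air animals serve below as side values.

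Sulfur mustard is a bifunctional alkylating agent that reacts with DNA, proteins and glutathione. Inhaled, it is known to injure the epithelium of the conducting airways, and the injury develops over hours, with loss of epithelial cells, inflammation and, in severe cases, fibrin casts. Cells meet alkylation and oxidant stress through glutathione conjugation, the p53 pathway and DNA repair, and the airway wall and its vessels through smooth muscle tone, clotting and recruited leukocytes. Members of these systems are given in that order, from epithelium to vessel wall, blood and stress responses.

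No single gene passed the test between low and air in the apical lobe. Of 23999 probe sets, 0 (0.0%) had a Benjamini-Hochberg adjusted p under 0.05 in limma's moderated test, with the smallest adjusted p at 0.221. At an unadjusted p under 0.05 there were 1708 probe sets, 877 with a higher and 831 with a lower mean in the low animals. The 3 low values all lay above the 3 air values for 1898 probe sets (7.91%) and all below them for 1950 (8.13%). Over the 6765 genes, each represented by its brightest probe set, those counts were 471 (6.96%) and 525 (7.76%). The values below are therefore differences that the 6 animals show without passing the correction, and "dim" marks a gene whose mean in both groups lay under the median of all probe sets (a signal of about 59.5). Signals are normalised array signals in arbitrary units, listed in the order of animals 31, 32 and 33 for low and 28, 29 and 44 for air. Differences are low minus air in log2 units, with limma's standard error after ±.

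The spread of the differences set what could be seen. For the 12479 brighter probe sets the median standard error was 0.147 and the median 95% interval reached 0.33 to either side of the difference. Differences beyond 1 log2 unit were seen for 91 probe sets, of which 66 were not dim, and 55 of those 66 had the higher mean in the low animals. Array medians lay between 57.7 and 62.0, and each array's mean correlation with the other 27 between 0.974 and 0.981, with the low value in low animal 31.

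**Figure D1:**
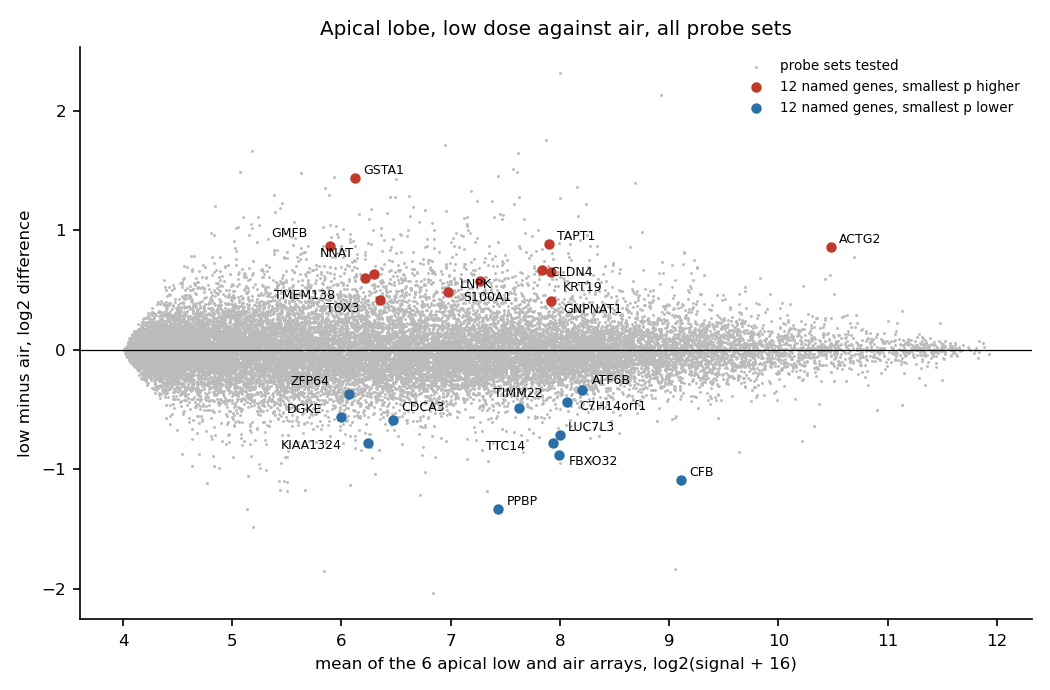
Difference between low and air in the apical lobe (y axis, log2 units) against mean log2(signal + 16) of the 6 arrays (x axis), 1 grey point for each of 23999 probe sets. The labelled points are the 12 genes with the smallest p in each direction among those not dim, none of which passed the adjusted threshold, from 1.43 for GSTA1 to -1.33 for PPBP.

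The low animals had lower values of an RNA integrity index than the air animals. The index averages the log2 ratios between the 3' and the 5' probe sets for actin and GAPDH among the array's controls, and it rises as RNA is degraded. It was -0.0091, 0.50 and 0.21 in the low animals, against 0.52, 0.76 and 0.61 in the air animals. The mean was 0.24 ± 0.26 in the low animals and 0.63 ± 0.12 in the air animals (SD, n = 3 each), and the ranges did not overlap. The difference of -0.39 had a two-sided p of 0.1 in the exact permutation test, which is the smallest that 20 splits of 6 animals allow. In the other lobes of the same animals the difference was -0.36 (exact p = 0.1, median lobe) and -0.32 (exact p = 0.5, caudal lobe). The fit was repeated with this index as a covariate, and below a value "with the index fitted" is given for each gene described whose difference of at least 0.2 then moved by over 1.5 times. Where leaving out single animals moved such a difference by as much, the range "with an animal left out" or a value without 1 animal is given. This holds for genes whose signals are listed by animal, and not for every other gene. Medium animal 39, whose apical array enters the estimate of spread and the medium values, had an index of 1.18. Any further part of RNA integrity in the results was not tested.

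**Figure D2:**
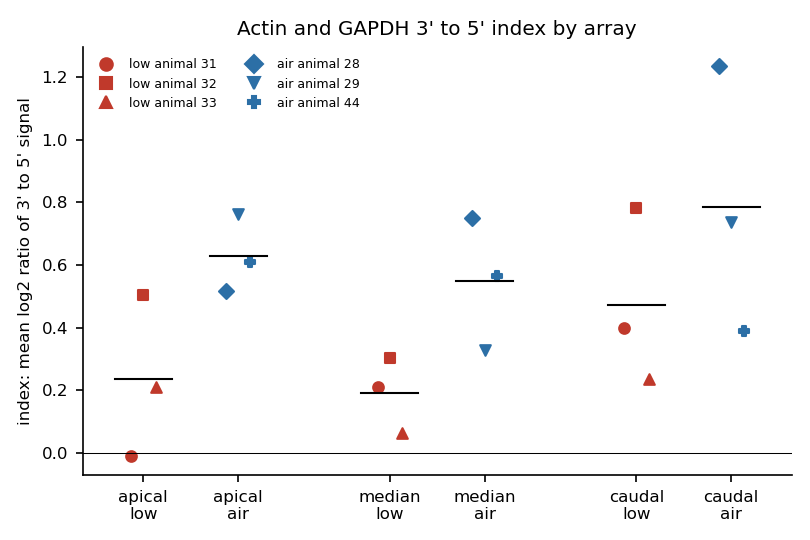
The 3' to 5' index (y axis, log2 units, higher where RNA is less intact) for each low and air array in 3 lobes (x axis). Symbols are animals and bars are group means. In the apical lobe the low animals (up to 0.50) lie below the air animals (from 0.52).

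Among genes of the airway lining, 2 of 14 listed had all low values above all air values, against 6.96% of all genes. Both mark simple and glandular epithelium. CLDN4, a claudin of epithelial tight junctions, measured 248, 333 and 243 in the low animals, against 187, 149.7 and 161 in the air animals. Its difference was 0.67 ± 0.14 (95% interval 0.34 to 0.99, adjusted p = 0.691), and the lowest low animal stood well above the highest air animal. KRT19, a keratin of simple epithelia, measured 328, 290.2 and 246 in the low animals, against 217, 160.5 and 159 in the air animals, a difference of 0.65 ± 0.16 (95% interval 0.29 to 1.00, adjusted p = 0.691). The groups were again separate for KRT19, with low animal 33 nearest to air animal 28. The list of 14 measured secretory and basal cell genes held both, and its median was 0.022, against -0.011 for all 6765 genes, so these were 2 genes above a list that lay near 0. In that list 8 of 14 were above 0. The keratins KRT8 (0.013 ± 0.21) and KRT18 (-0.11 ± 0.29), and CLDN7 (-0.0455 ± 0.18) and EPCAM (-0.039 ± 0.18), did not share the difference. In the list of 11 measured junction genes, which also holds CLDN4, the median was -0.030. CLDN11, a claudin best known from myelin and testis, went the other way, with 666, 695 and 929.9 in the low animals, against 942, 981 and 954 in the air animals and a difference of -0.34 ± 0.16.

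Secreted airway products varied widely within the groups. BPIFA1, an antimicrobial protein of airway surface fluid, measured 122, 638 and 553 in the low animals, against 208, 228 and 133 in the air animals. Low animal 31 lay below every air animal while the other 2 low animals lay far above. The difference was 0.88 ± 0.54 (0.48 to 1.597 with an animal left out), the highest being that without animal 31. CLCA1, a secreted goblet cell protein that regulates chloride conductance, measured 657, 184 and 228 in the low animals, against 219, 103 and 34.6 in the air animals. Animal 31 was the highest there, air animal 28 overlapped the low group, and the difference was 1.51 ± 0.57, or 0.94 without air animal 44. Of 9 measured ciliated cell genes, 8 were above 0 with a median of 0.19, between 0.086 (over the brighter probe sets alone) and 0.32 (without low animal 31) over the alternatives tried. The count above 0 ranged from 5 (without air animal 44) to 9 over them. TUBB4B, the tubulin isoform of axonemes, measured 704, 622 and 782 in the low animals, against 511, 346 and 418 in the air animals (0.71 ± 0.27, 0.39 with the index fitted), with no overlap. ROPN1L, a protein of the ciliary radial spoke, measured 297, 422 and 435 in the low animals, against 288, 317 and 269 in the air animals (0.37 ± 0.14), and there low animal 31 lay inside the air range. FOXJ1 and most other listed ciliary genes had no probe set with 1 symbol.

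The widest difference among the smallest p values was in glutathione conjugation. GSTA1, an alpha-class glutathione transferase that joins glutathione to electrophiles, measured 95.7, 103 and 97.8 in the low animals, against 30.7, 11.7 and 43.2 in the air animals. The low animals lay within a few units of each other, 98.7 ± 3.54 in the low animals and 28.5 ± 15.8 in the air animals (SD, n = 3 each), and the groups did not overlap. The difference was 1.43 ± 0.35 (95% interval 0.64 to 2.23, adjusted p = 0.691), and it lay between 1.13 and 1.67 when single animals were left out. A second bright probe set gave 1.29 ± 0.37 and a dim one 0.10 ± 0.13. Alpha-class transferases are near-identical in sequence, so the probe sets may also read GSTA1's relatives. The wider list of NRF2 targets, the oxidant response genes to which GSTA1 belongs, did not share this: 16 of 28 were above 0 with a median of 0.018. GSTO1, an omega-class transferase, measured 643, 582 and 704 in the low animals, against 435, 583 and 529.6 in the air animals (0.31 ± 0.14, 0.20 to 0.40 with an animal left out), and HMOX1, the inducible heme oxygenase, measured 994, 830.2 and 1012 in the low animals, against 1129, 790.1 and 1372 in the air animals (-0.18 ± 0.22), with overlap in both.

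Cytochrome P450 genes pointed both ways. CYP2B22 measured 200.2, 224 and 366 in the low animals, against 153, 173 and 149 in the air animals, a difference of 0.64 ± 0.20 (0.39 to 0.80 with an animal left out) with low animal 33 highest and no overlap. CYP2A19 measured 37.04, 54.9 and 44.7 in the low animals, against 58.4, 71.3 and 62.9 in the air animals (-0.39 ± 0.13, -0.25 with the index fitted), again without overlap but with the low animals below. CYP3A29, dim in both groups, measured 14.8, 17.6 and 8.43 in the low animals, against 18.4, 42.1 and 108 in the air animals (-1.10 ± 0.46, -1.53 to -0.61 with an animal left out), and its air values spread over several-fold. The list of 14 measured drug-metabolising genes had a median of -0.015.

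Smooth muscle genes formed the list with the highest median difference, though not under every alternative tried. All 14 measured members were above 0, with a median of 0.26, against -0.011 over all genes, of which 3205 of 6765 were above 0. The count was 12 of 14 with the index fitted, 12 without air animal 28 and 13 without low animal 31. For 8 of the 14 (ACTG2, CNN1, MYLK, KCNMB1, MYL9, TAGLN, ACTA2 and CALD1) every low value exceeded every air value, against 6.96% of all genes, while 0 of 14 passed the adjusted threshold in limma and 6 had an unadjusted p under 0.05. Without quantile normalisation, 7 of 14 were separate on the deposited scale and 5 of 14 with arrays centred on their medians. The share of all genes was not counted under those scalings, so the 6.96% is not a measure for them. The signals of the list summed to 14753, 12842 and 13006 in the low animals, against 9840.2, 11812 and 10754 in the air animals, with low animal 31 the highest. The list median lay between 0.21 and 0.34 over the alternatives tried, and was 0.22 with the index fitted. The ciliated cell list was higher with the index fitted (0.23) and without low animal 31 (0.32, against 0.24). With all probe sets of a gene averaged, the mast cell list was highest (0.34, against 0.23).

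Within the list the contractile and regulatory genes differed in size. ACTG2, the gamma actin of smooth muscle, measured 2399, 1866 and 1548 in the low animals, against 897, 1236 and 1031 in the air animals. It had the smallest p of the list (0.86 ± 0.20, 95% interval 0.40 to 1.31, adjusted p = 0.691), with the lowest low animal above the highest air animal, but a second bright probe set named ACTG2 gave -0.024 ± 0.094. CNN1, calponin, which binds actin and myosin in contractile cells, measured 702, 440.1 and 456 in the low animals, against 198, 344 and 321 in the air animals (0.86 ± 0.27), with animal 31 far above the rest. MYLK, the kinase that starts contraction by phosphorylating myosin light chain, measured 95.5, 47.5 and 59.4 in the low animals, against 34.02, 39.01 and 29.9 in the air animals (0.69 ± 0.28, 0.34 with the index fitted). KCNMB1, the beta subunit of the large-conductance potassium channel that opposes contraction, measured 181, 149 and 163 in the low animals, against 86.96, 122 and 145 in the air animals (0.45 ± 0.16, 0.27 to 0.59 with an animal left out). A dim second KCNMB1 probe set gave 0.013 ± 0.089. ACTA2, the alpha actin that is the usual marker of these cells, measured 3134, 2913 and 3197 in the low animals, against 2379.9, 2905 and 2644 in the air animals and differed less (0.22 ± 0.10), with low animal 32 and air animal 29 almost level. DES, SMTN, SYNM, TPM1, TPM2 and PLN overlapped between the groups, with differences from 0.044 to 0.36. For these genes ranges with an animal left out are not given, and DES was highest in low animal 31.

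The other lobes of the same animals gave the list lower low minus air differences. Its median was 0.039 in the median lobe and 0.082 in the caudal lobe. In the apical lobe at the medium dose, set against the same 3 air animals, it was 0.012. The low minus air difference in the apical lobe minus that in the mean of the other lobes was above 0 for 14 of 14 members, and it was 0.61 ± 0.26 for CNN1, 0.54 ± 0.22 for ACTG2 and 0.54 ± 0.16 for DES, the intermediate filament protein desmin. None of these passed in limma's test of the lobe difference (adjusted p of 1.00 for each). For ACTG2 the air animals' log2 signals were 9.83, 10.29 and 10.03 apical, against 10.72, 10.53 and 11.02 in the median lobe. The low animals had 11.24, 10.88 and 10.61 apical, against 11.06, 11.05 and 10.69. For ACTG2 the apical lobe of the air animals thus lay lowest. CNN1 also lay below the median lobe there, with air animals at 7.74, 8.49 and 8.40 apical, against 8.78, 8.66 and 9.32. DES lay below the median lobe in air animals 28 and 44 (8.12 and 8.58, against 8.63 and 8.98) but not in 29. MYLK lay below the median lobe in air animals 29 and 44 only, with air animals at 5.64, 5.78 and 5.52 apical, against 5.11, 6.16 and 5.64. Its low animals had 6.80, 5.99 and 6.24 apical, against 5.94, 5.94 and 6.12. SYNM and PLN were higher in the apical than in the median lobe of every air animal.

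**Figure D3:**
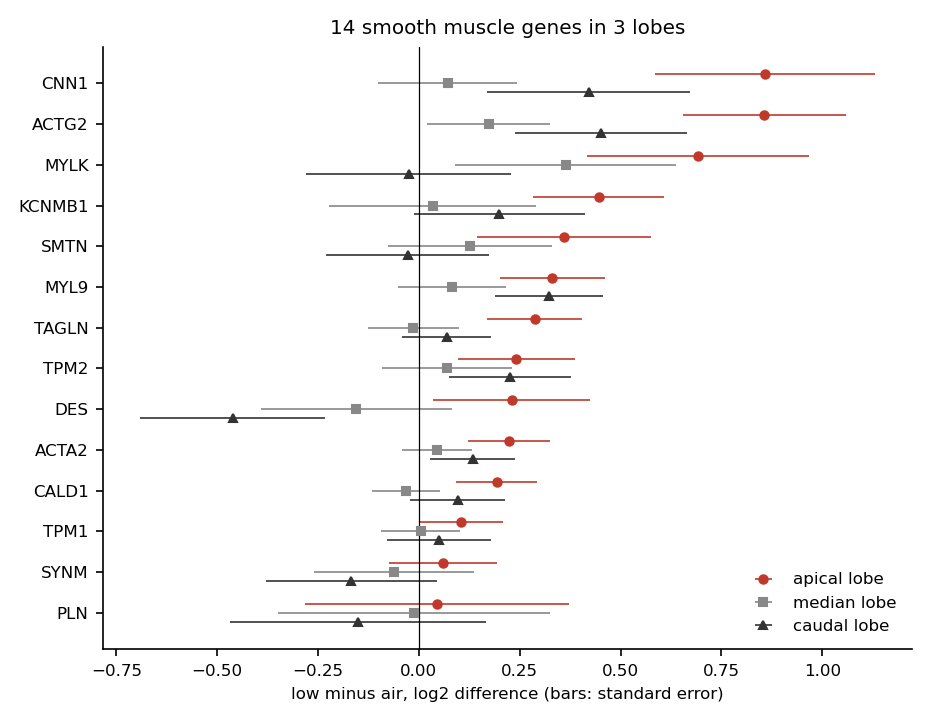
Low minus air differences (x axis, log2 units, bars are standard errors) of 14 smooth muscle genes (y axis) in the apical, median and caudal lobes of 3 low and 3 air animals. All 14 apical values lie above 0, up to 0.86 for CNN1 and ACTG2, and DES lies at -0.46 in the caudal lobe.

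Receptors and vessel genes near this list were also above their air values in several cases. EDNRB, the endothelin B receptor, measured 110.2, 117 and 102 in the low animals, against 54.9, 67.9 and 95.1 in the air animals (0.53 ± 0.16), with low animal 33 just above air animal 44. A dim second EDNRB probe set gave 0.11 ± 0.19. PTGER3, a prostaglandin E2 receptor, was dim, with 62.6, 36.3 and 53.1 in the low animals, against 4.95, 23.5 and 33.3 in the air animals (0.93 ± 0.33, 0.58 to 1.19 with an animal left out). EDNRA, the endothelin A receptor of smooth muscle, measured 137, 96.7 and 126 in the low animals, against 78.5, 77.3 and 114 in the air animals (0.36 ± 0.22, 0.10 with the index fitted) and overlapped. The list of 15 vasoactive peptide and prostaglandin genes had a median of 0.12, with 11 above 0, and it was 0.042 with the index fitted and 0.053 without low animal 33. EPAS1, the hypoxia-inducible factor 2 alpha of endothelium, measured 1099, 1012 and 1287 in the low animals, against 889.9, 828 and 730.4 in the air animals (0.46 ± 0.13), all low animals above all air animals. The 20 endothelial genes had a median of 0.080, with 16 above 0 and 2 separate upwards, near the 6.96% of all genes. On median-centred arrays 12 were above 0 and 1 was separate, as 1 was on the deposited scale. The shares of all genes on those scales were not counted. Their summed signal was 12773, 12343 and 12153 in the low animals, against 11430.3, 11551 and 11443 in the air animals.

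3 matrix genes were highest in low animal 31. COL1A2, a chain of type I collagen, measured 489.5, 158 and 236 in the low animals, against 132, 131 and 182 in the air animals (0.79 ± 0.37, 0.48 with the index fitted, 0.37 to 1.14 with an animal left out), and its difference was 0.37 without low animal 31. A dim second COL1A2 probe set gave -0.18 ± 0.20. TIMP1, an inhibitor of matrix proteases, measured 1365, 486 and 695 in the low animals, against 677, 447 and 406 in the air animals (0.62 ± 0.34, 0.39 with the index fitted, 0.22 to 0.95 with an animal left out). TIMP3, a related inhibitor bound to matrix, was separate between the groups at 226, 92.5 and 169 in the low animals, against 88.5, 82.9 and 76.9 in the air animals (0.78 ± 0.34, 0.30 with the index fitted). The median of 17 fibroblast and matrix genes was 0.13, and it was 0.023 without air animal 29.

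**Figure D4:**
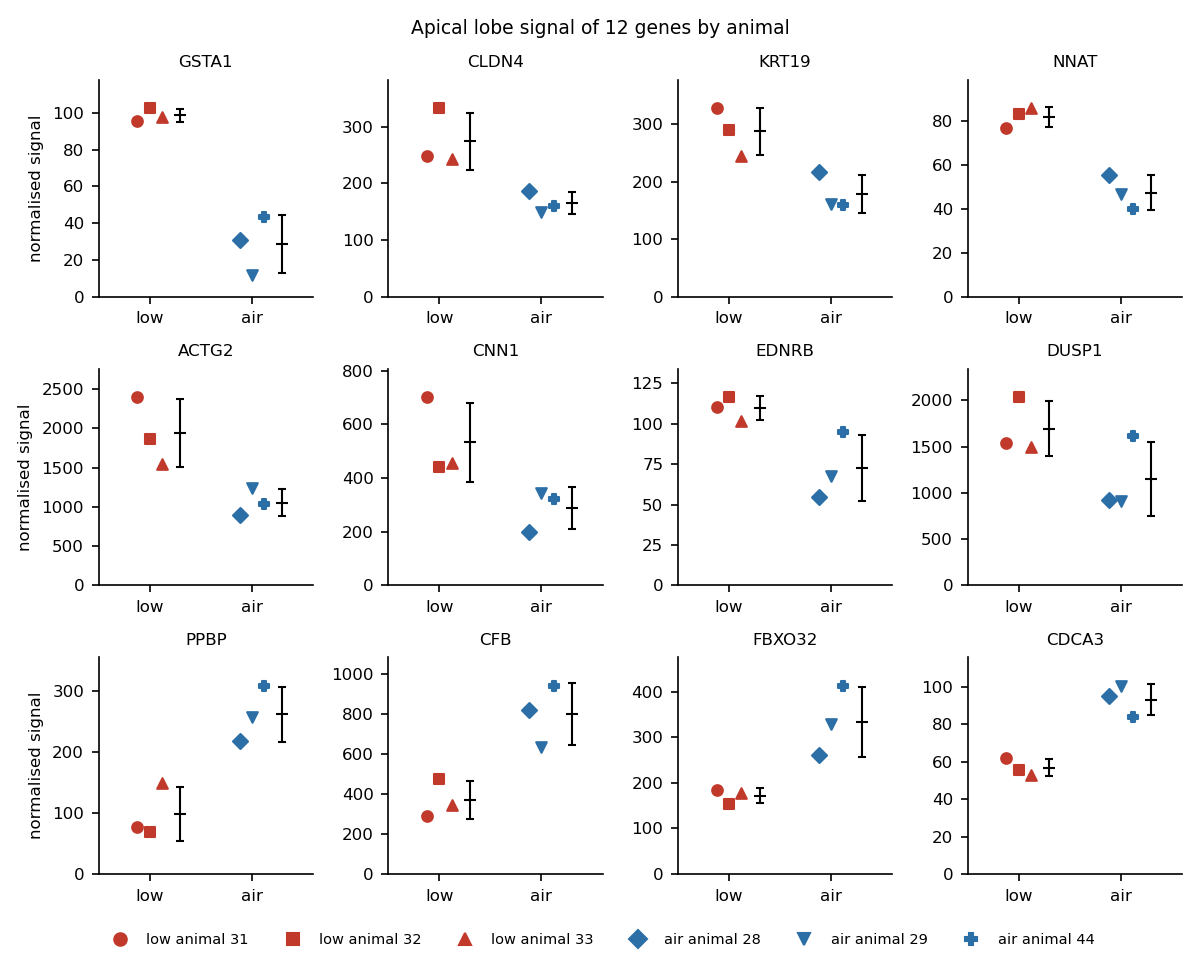
Normalised signal (y axes, starting at 0) of 12 genes in the apical lobe by animal, low left of air. Symbols are animals, and the dash with bars is the mean ± SD of 3 animals. All genes but DUSP1 separate the groups, and in DUSP1 air animal 44 lies among the low animals.

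Among blood cell genes the clearest difference was lower in the low animals. PPBP, the precursor of a platelet-derived neutrophil chemokine, measured 76.5, 68.99 and 149 in the low animals, against 218, 257 and 308 in the air animals. The highest low animal lay below the lowest air animal, and the difference was -1.33 ± 0.27 (95% interval -1.94 to -0.72, adjusted p = 0.691). In the other lobes it was 0.19 (median) and -0.57 (caudal), and in the apical lobe at the medium dose 0.14. The lobe difference of -1.14 ± 0.39 did not pass in limma (adjusted p = 1.00). Of the other measured platelet genes, ITGA2B, the platelet fibrinogen receptor's alpha subunit, was dim at 30.4, 30.6 and 28.7 in the low animals, against 36.4, 42.7 and 47.5 in the air animals (-0.34 ± 0.21, -0.065 with the index fitted). ITGB3, its beta subunit, overlapped (-0.16 ± 0.13). The 4 measured platelet genes summed to 275, 263 and 329.9 in the low animals, against 403, 468 and 534 in the air animals. Without PPBP, a choice made after the values were seen, the other 3 summed to 198, 194 and 181 in the low animals, against 185, 211 and 226 in the air animals, and the groups overlapped. GP9, a subunit of the platelet glycoprotein Ib complex, had a difference of 0.092 ± 0.13.

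Leukocyte genes gave no common direction. Of 8 measured neutrophil genes, 2 were above 0, with a median of -0.13, between -0.21 (without air animal 44) and -0.067 (without air animal 29) over the alternatives tried. S100A8, a calgranulin abundant in neutrophils, was dim at 36.4, 27.4 and 42.6 in the low animals, against 45.1, 58.8 and 39.5 in the air animals (-0.31 ± 0.15, -0.41 to -0.19 with an animal left out). SOD2, the mitochondrial superoxide dismutase, measured 871, 662 and 898 in the low animals, against 1268, 979 and 926 in the air animals (-0.38 ± 0.18, -0.57 with the index fitted, -0.46 to -0.24 with an animal left out), without overlap. FCGR3A of the same list went the other way, with 1466, 1429 and 1564 in the low animals, against 1239, 1174 and 1338 in the air animals. Its difference was 0.25 ± 0.14 (0.15 with the index fitted), without overlap, and TREM1 was the other member above 0. CD14, the lipopolysaccharide coreceptor of monocytes, measured 109.9, 66.00 and 139.8 in the low animals, against 43.7, 40.5 and 41.8 in the air animals, a difference of 1.01 ± 0.48 without overlap, which was 0.34 with the index fitted, and a dim second probe set gave -0.18 ± 0.13. The 16 macrophage and monocyte genes had a median of 0.10, or -0.022 with that covariate. CD79B, part of the B cell receptor, measured 46.02, 58.4 and 40.03 in the low animals, against 90.6, 72.8 and 59.9 in the air animals (-0.49 ± 0.21), with the low animals below. CD38, an ectoenzyme of plasma cells and other leukocytes from the same list of 6, pointed the other way at 117, 89.9 and 93.98 in the low animals, against 58.8, 67.4 and 77.7 in the air animals (0.47 ± 0.27, 0.18 with the index fitted), with the low animals above. The 16 T and NK cell genes had a median of 0.055 with 0 separate in either direction.

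Antigen presentation genes separated the groups by small differences. Of 14 measured genes of MHC class II and dendritic cells, 6 had all low values above all air values and 2 all below, against 6.96% and 7.76% of all genes, and the median was 0.12. SLA-DRA, the alpha chain of the swine DR molecule, measured 2621, 2286 and 2570.4 in the low animals, against 2104, 1923 and 1947 in the air animals (0.32 ± 0.18, 0.095 with the index fitted). CD74, the invariant chain that guides class II assembly, measured 1637, 1703 and 1673 in the low animals, against 1293, 1280.4 and 1598 in the air animals (0.27 ± 0.28, -0.030 with the index fitted). With the index fitted the list median was -0.038. On median-centred arrays 3 of 14 were separate upwards and 1 downwards, where the shares of all genes were not counted. CD83, a marker of activated dendritic cells, lay below air at 245, 254 and 246 in the low animals, against 355, 273 and 332 in the air animals (-0.34 ± 0.11), but a dim second probe set gave 0.15 ± 0.32.

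Inflammatory mediators had a list median near 0. Of 32 measured cytokine and chemokine genes, 12 were above 0 with a median of -0.026, and 1 was separate upwards and 3 downwards, shares near those of all genes (6.96% and 7.76%). The separate one above was CXCL2, a neutrophil chemokine, with 220.3, 208 and 152 in the low animals, against 145, 65.3 and 122 in the air animals (0.77 ± 0.32, 0.48 to 0.97 with an animal left out). CXCL8, the main neutrophil chemokine of airway epithelium, measured 70.9, 44.03 and 57.1 in the low animals, against 104, 63.9 and 91.1 in the air animals (-0.48 ± 0.25), so it lay lower in 2 low animals than in any air animal. At the medium dose, set against the same air animals, CXCL2 was 0.99 and CXCL8 0.73. CXCL14, a chemokine that epithelia make constitutively, measured 1643, 1598 and 1612 in the low animals, against 1935, 1886 and 2143 in the air animals (-0.29 ± 0.11), and its second probe set gave -0.64 ± 0.21. IL1B (-0.13 ± 0.11) and IL6 (0.29 ± 0.23, dim, 0.081 to 0.49 with an animal left out) overlapped. CFB, complement factor B of the alternative pathway, measured 289, 475 and 343 in the low animals, against 821, 632 and 941 in the air animals, a difference of -1.09 ± 0.27 (95% interval -1.70 to -0.48, adjusted p = 0.691) without overlap, but a second bright probe set gave 0.31 ± 0.42.

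Clotting genes had a median of 0.016 over 17 members. Tissue factor, F3, which starts clotting, measured 652, 652 and 507 in the low animals, against 476, 372 and 538 in the air animals (0.38 ± 0.28, 0.13 with the index fitted, 0.24 to 0.50 with an animal left out), and air animal 44 overlapped the low group. Its differences were 1.13 in the caudal lobe and 0.66 in the apical lobe at the medium dose. PROS1, the anticoagulant protein S, measured 931, 898 and 946 in the low animals, against 1098, 1108 and 985 in the air animals (-0.20 ± 0.10), all low below all air. Of interferon-stimulated genes, 15 of 21 were above 0 (median 0.11), and the median lay between -0.052 (without low animal 32) and 0.27 (without air animal 28) over the alternatives tried, with 9 to 17 members above 0. IFIT1, an interferon-induced RNA-binding protein, measured 606, 614 and 497 in the low animals, against 620.3, 381 and 237 in the air animals (0.55 ± 0.29, 0.22 to 0.89 with an animal left out), with air animal 28 above every low animal.

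Immediate early genes, the transcription factors and phosphatases that cells switch on within minutes of a stimulus, were above 0 for 13 of 18 members, with a median of 0.16. FOS, an AP-1 subunit, measured 913, 973 and 494 in the low animals, against 382, 339 and 769 in the air animals (0.69 ± 0.32, 0.48 to 1.05 with an animal left out). DUSP1, a phosphatase that turns off MAP kinases, measured 1543, 2036 and 1499 in the low animals, against 919, 911 and 1615 in the air animals (0.59 ± 0.24). In both genes air animal 44 overlapped the low group while the other 2 air animals lay below every low animal. KLF4, a zinc finger factor of epithelia and vessels, measured 524, 589 and 669 in the low animals, against 508, 464 and 349 in the air animals (0.43 ± 0.23, 0.68 with the index fitted, 0.28 to 0.54 with an animal left out) and was separate. The list median was 0.012 without air animal 29 and 0.32 without low animal 33. At the medium dose in the apical lobe it was 0.47. The overlapping list of 17 glucocorticoid responsive genes, which shares DUSP1, had a median of 0.033, and its classical target FKBP5 measured 203, 88.5 and 152 in the low animals, against 165, 108 and 82.5 in the air animals (0.26 ± 0.56, -0.30 with the index fitted, 0.022 to 0.55 with an animal left out).

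Genes of the response to DNA damage had list medians near 0. PMAIP1, the proapoptotic p53 target NOXA, measured 92.1, 101 and 65.4 in the low animals, against 64.1, 54.00 and 48.01 in the air animals (0.51 ± 0.21), all low animals above all air animals. CDKN1A, the p53-induced cell cycle inhibitor p21, measured 183, 172 and 178 in the low animals, against 159, 168 and 154 in the air animals, a difference of 0.13 ± 0.20 (95% interval -0.31 to 0.57), small but without overlap. At the medium dose these were 0.98 and 0.62 against the same air animals. BAX, a mitochondrial death effector, overlapped at 114, 109 and 97.4 in the low animals, against 72.6, 58.2 and 110.4 in the air animals (0.38 ± 0.22, 0.16 with the index fitted, 0.21 to 0.59 with an animal left out). The 21 measured p53 targets had a median of 0.036 and the 20 DNA repair genes -0.043. FANCD2, of the crosslink repair pathway, measured 65.3, 44.8 and 40.2 in the low animals, against 67.1, 71.2 and 61.5 in the air animals (-0.34 ± 0.14), with low animal 31 inside the air range.

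Cell division genes had a median of -0.094 over 24 members, of which 7 were above 0. The median was -0.0082 with the index fitted, where 11 were above 0, and -0.012 without low animal 33. CDCA3, a factor of mitotic entry, measured 61.7, 55.7 and 52.8 in the low animals, against 94.8, 101 and 83.98 in the air animals. Its difference of -0.58 ± 0.11 (adjusted p = 0.534) rested on groups well apart, and it lay between -0.65 and -0.54 with single animals left out. CCNB2, cyclin B2, measured 56.5, 53.7 and 29.2 in the low animals, against 68.7, 79.96 and 59.5 in the air animals (-0.48 ± 0.18, -0.60 to -0.26 with an animal left out), while CCNA2, cyclin A2, dim, measured 26.1, 32.3 and 27.9 in the low animals, against 21.4, 16.3 and 12.6 in the air animals (0.46 ± 0.14). EGFR, the receptor of epidermal growth factor, measured 135, 203 and 167 in the low animals, against 254, 225 and 280.4 in the air animals (-0.56 ± 0.21), with every low animal below every air animal, and its second probe set gave -0.48 ± 0.27.

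The amino acid response genes controlled by ATF4 had the list median next below that of smooth muscle, 0.21, with 12 of 15 above 0. ASNS, asparagine synthetase, measured 198, 176 and 163 in the low animals, against 140.3, 153 and 140.0 in the air animals (0.28 ± 0.11), and SLC3A2, the heavy chain of amino acid transporters, measured 120.5, 129 and 127 in the low animals, against 99.1, 116 and 82.6 in the air animals (0.30 ± 0.22, 0.10 with the index fitted, 0.20 to 0.41 with an animal left out), both without overlap. DDIT3, the stress factor CHOP, lay below air at 81.8, 102 and 98.4 in the low animals, against 116, 112 and 134 in the air animals (-0.31 ± 0.16), and ATF4 itself overlapped (-0.11 ± 0.16). The list median was 0.17 in the median lobe and 0.14 in the caudal lobe, and 0.10 in the apical lobe without low animal 31. FBXO32, the ubiquitin ligase subunit atrogin-1, measured 185, 153 and 177 in the low animals, against 261, 329 and 413 in the air animals. Its groups were separate, with a difference of -0.88 ± 0.20 (95% interval -1.33 to -0.43, adjusted p = 0.691), -0.82 in the median lobe, -1.09 in the caudal lobe and -1.52 at the medium dose in the apical lobe.

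The remaining genes with the smallest p came from varied processes. NNAT, neuronatin, a small membrane protein of the endoplasmic reticulum, measured 76.96, 83.03 and 85.9 in the low animals, against 55.6, 46.7 and 39.9 in the air animals (0.63 ± 0.12, adjusted p = 0.534). S100A1, a calcium-binding protein, measured 182, 179 and 156 in the low animals, against 109.8, 136 and 89.1 in the air animals (0.58 ± 0.15). GNPNAT1, an enzyme of aminosugar synthesis, measured 294, 225 and 271 in the low animals, against 199.5, 200.0 and 182 in the air animals (0.41 ± 0.11), and its dim second probe set gave -0.32 ± 0.26. TAPT1 (0.88 ± 0.20), TMEM138 (0.60 ± 0.13), LNPK (0.48 ± 0.13), TOX3 (0.42 ± 0.11) and GMFB (0.87 ± 0.24) were separate in the same direction. These genes were chosen by p, so their separation is a description.

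On the lower side, LUC7L3, a splicing factor of the U1 complex, measured 159, 213 and 181 in the low animals, against 351, 282 and 306 in the air animals (-0.72 ± 0.13, adjusted p = 0.561). TTC14, a tetratricopeptide repeat protein, measured 136, 178 and 202 in the low animals, against 313, 291 and 309.7 in the air animals (-0.78 ± 0.16). TIMM22, an import channel of the mitochondrial inner membrane, measured 145, 134 and 174 in the low animals, against 232, 202 and 219 in the air animals (-0.49 ± 0.12). KIAA1324 (-0.78 ± 0.20), C7H14orf1 (-0.44 ± 0.12), DGKE (-0.56 ± 0.16), ZFP64 (-0.37 ± 0.10) and ATF6B (-0.34 ± 0.10) lay lower as well, and for ZFP64 both other probe sets, dim ones, pointed the other way. The smallest p of all belonged to a probe set without a gene name here. It measured 155, 160.0 and 191 in the low animals, against 338, 339.5 and 338 in the air animals (-0.95 ± 0.11, adjusted p = 0.221), so the groups lay far apart beside the spread within each.

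The apical difference was set against the other lobes of the same animals, as the low minus air difference in the apical lobe minus that in the mean of the median and caudal lobes. The 8 animals with all 3 lobes entered the fit. Of 23999 probe sets, 0 (0.0%) passed an adjusted p of 0.05 in limma, and 922 had an unadjusted p under 0.05. Of the genes named here CLN8 and GSTA1 had the lowest unadjusted p for it. For GSTA1 it was 0.65 ± 0.13, and the low minus air difference was 1.43 in the apical, 0.78 in the median and 0.78 in the caudal lobe. CLN8, a membrane protein of the endoplasmic reticulum, was 0.25 in the apical lobe (0.16 to 0.39 with an animal left out), -0.41 in the median and -0.35 in the caudal lobe. CSRP1, a LIM protein of smooth muscle and other cells, was 0.49, -0.15 and -0.026 in that order of lobes, and ID4, an inhibitor of helix-loop-helix factors, 0.78, 0.21 and 0.17. With the index fitted the apical differences were 0.30 for CSRP1 and 0.48 for ID4. KRT19 was 0.65, 0.58 and 1.00, and FOS 0.69, 0.86 and 1.29. The comparison of low with air within the median lobe and within the caudal lobe also gave 0 calls, with 1663 and 1461 probe sets at an unadjusted p under 0.05.

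The tissue label was borne out by lung markers. SFTPC, the surfactant protein of alveolar type 2 cells, measured 2844, 3003 and 2761 in the low animals, against 2719, 2929 and 3018 in the air animals (-0.009 ± 0.093), and AGER, of type 1 cells, 867, 771 and 755 in the low animals, against 513, 569 and 649.8 in the air animals (0.46 ± 0.39, -0.063 with the index fitted). A dim second AGER probe set gave 0.021 ± 0.25. SFTPD, surfactant protein D, measured 873, 1227 and 1153 in the low animals, against 1220.3, 1349.9 and 1285 in the air animals (-0.26 ± 0.15, -0.080 with the index fitted, -0.35 to -0.11 with an animal left out). Genes of striated and heart muscle (14 of 16 dim), cartilage (7 of 7 dim) and mesothelium (3 of 3 dim) were mostly near the floor, with medians of -0.033, 0.015 and 0.088. Erythroid genes summed to 1234, 704 and 695 in the low animals, against 691, 707 and 956 in the air animals, highest in low animal 31. Housekeeping lists lay near 0, at 0.013 for 34 ribosomal proteins, 0.013 for 29 proteasome subunits and 0.025 for 26 subunits of oxidative phosphorylation. The other lists had medians of -0.0084 (alveolar type 2 cells), -0.037 (alveolar type 1 cells), -0.11 (B and plasma cells), 0.019 (mast cells), 0.10 (fat), 0.027 (erythroid cells), -0.035 (heat shock proteins and chaperones), 0.067 (growth factor and wound genes), -0.0077 (solute and ion transport) and -0.033 (glycolysis and hypoxia).

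**Figure D5:**
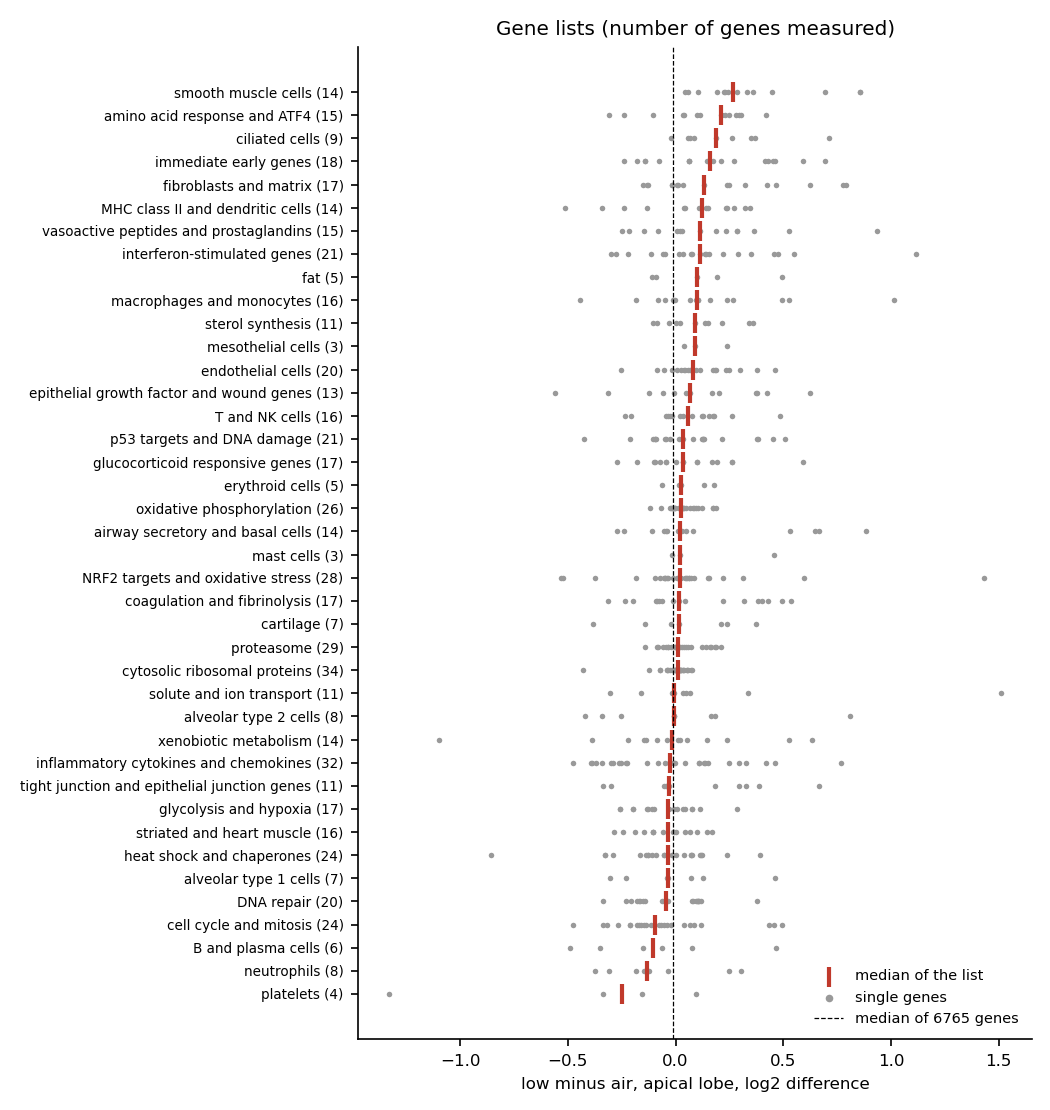
Low minus air differences in the apical lobe (x axis, log2 units) of the genes (grey points) in 40 lists (y axis, number of genes measured in brackets), with the median of each list in red. The dashed line is the median of all 6765 genes, and list medians run from -0.25 for platelets to 0.26 for smooth muscle cells.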

How the data were processed

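RNA of 28 left lung lobe samples from 10 swine was hybridised to an Affymetrix porcine array. The deposited values were signal intensities per probe set on a linear scale, and the summarization software and scaling are not given in the sources used here. With 2% of probe sets trimmed at either end, array means were all 150. Of 24123 probe sets, 124 controls were left out and 23999 tested without a brightness filter. GEO's platform annotation gave 1 symbol for 10069 of these, several for 198 and none for 13732; current gene tables changed 0 of the 9961 symbols they matched. The 10069 covered 6765 genes, 2261 with more than 1 probe set, and the brightest over 28 arrays stands for the gene.

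Signals were taken as log2(signal + 16). The range of the arrays' lower quartiles was 0.316, over a limit of 0.2, so the 28 arrays were quantile normalised. The 9 apical arrays (3 low, 3 air, 3 medium) were fitted together with limma 3.58.1 (lmFit and eBayes, R 4.3.3), so the medium animals contribute to the estimate of spread, and calls between low and air needed a Benjamini-Hochberg adjusted p under 0.05. The lobe difference was fitted on 1 value per animal over 8 animals. The fit was also run on simulated data with independent noise for each probe set, and no result here rests on the outcome. Other steps used Python 3.11.15. The animal was the replicate, and the number of arrays limits the precision.

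Named genes were the 12 with the smallest p in each direction among those not dim, up to 3 with the smallest p from each of 40 lists, 16 fixed genes and the 6 with the smallest p for the lobe difference. Some other members of a list were named beside them, chosen after their values were seen. The members and lists were chosen with earlier results of these data known. Alternatives were the deposited scaling, median-centred arrays, an offset of 1, the brighter probe sets, trend and robust eBayes, only the low and air arrays, all 28 arrays with a random animal effect, the RNA index as a covariate, the mean of a gene's probe sets, and leaving out each animal; counts of separate genes under other scalings were added after seeing the data.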

Additional observations from a re-analysis of the deposited data

Results flagged for a closer look

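For 7 of the 147 named genes the 3 low animals all lay on one side of the air mean in the apical lobe and all on the other side in another lobe. The share of all genes with this pattern was not counted, so the 7 are a description. The lobe difference below is low minus air in the apical lobe minus that in the mean of the other lobes, and limma's test of it gave an adjusted p of 1.00 for each. Higher in the apical lobe and lower elsewhere were CIITA, the master regulator of MHC class II, and KCNH2, a potassium channel, both opposed in the median lobe. CIITA was 0.34 apical (0.16 to 0.46 with an animal left out), -0.44 median and -0.011 caudal, with a lobe difference of 0.57 ± 0.24. KCNH2 was 0.27 apical, -0.081 median and -0.25 caudal, with a lobe difference of 0.44 ± 0.10. A dim second KCNH2 probe set gave 0.018 ± 0.087 in the apical lobe. CALR, the endoplasmic reticulum chaperone calreticulin, was opposed in the caudal lobe. CALR was 0.24 apical (0.13 to 0.42 with an animal left out), 0.11 median and -0.38 caudal, with a lobe difference of 0.37 ± 0.22.

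Lower in the apical lobe and higher in the median lobe were SFTPD (-0.26 apical, 0.13 median, 0.080 caudal, lobe difference -0.36 ± 0.12) and the checkpoint kinase CHEK2 (-0.17 apical, 0.14 median, -0.081 caudal, lobe difference -0.20 ± 0.10). The platelet integrin ITGB3 (-0.16 apical, -0.30 median, 0.16 caudal, lobe difference -0.087 ± 0.12) was opposed in the caudal lobe. The dim heart muscle gene NPPA was opposed in both other lobes (-0.24 apical, 0.24 median, 0.25 caudal, lobe difference -0.49 ± 0.19). Its apical difference was -0.36 to -0.16 with an animal left out.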

How the results depend on the processing

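The count of 0 calls between low and air held under 13 of 14 alternatives, with 851 to 2361 probe sets at an unadjusted p under 0.05 when single animals were left out (0 to 0 calls; lowest without low animal 31, and 1118 without air animal 29), 1066 with the RNA index fitted and 2685 with only the 6 low and air arrays. The exception was the fit of all 28 arrays with a random animal effect, which called 5. They were a probe set of GATA3 and 4 probe sets without a gene name, named after their values were seen. GATA3, a transcription factor of lymphocytes and epithelium, had a difference of 1.09 there, and the other 4 were all lower. The GATA3 probe set was not the gene's brightest, and the brightest was not among the 5 called. That fit takes the lobes of an animal as correlated by 0.34 and counts more arrays. The lobe difference kept 0 calls under its 13 alternatives (0 to 0 with an animal left out). The RNA index difference lay between -0.53 and -0.27 when single animals were left out. No paired analysis was possible because the low and air groups share no animal.

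Of 147 named genes, 134 kept their sign under every alternative and 13 did not, while 0 passed the threshold under any; the cause was not tested. The sign turned with the RNA index fitted for AGER (-0.063), IL7R (-0.018), KIT (-0.10), MS4A2 (0.0014) and FKBP5 (-0.30), on the deposited scale for GATA2 (-0.013), AHSP (0.015) and RPL11 (-0.0073), and on median-centred arrays for GATA2 (-0.055) and RPL11 (-0.049). With single animals left out, differences crossed 0 for WT1 (-0.015 to 0.20), CALB2 (-0.16 to 0.21), KIT (-0.012 to 0.69), GATA2 (-0.15 to 0.17), MS4A2 (-0.17 to 0.28), HBM (-0.21 to 0.32), AHSP (-0.42 to 0.16), CFD (-0.19 to 0.013) and SFTPC (-0.052 to 0.023). Of 40 list medians, 14 kept their sign under every alternative, smooth muscle, ciliated cells, amino acid response, neutrophils and platelets among them, and 26, most within 0.1 of 0, did not.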

Other observations

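Sterol synthesis genes had a median of 0.089 over 11 members in the apical lobe, 0.29 in the median lobe and 0.31 in the caudal lobe of the same animals. The apical median lay between -0.0069 (without low animal 31) and 0.17 (without low animal 32) over the alternatives tried, and was 0.029 with the index fitted. FDPS, farnesyl diphosphate synthase, measured 344, 232 and 262 in the low animals, against 232, 206 and 198 in the air animals (0.36 ± 0.19, 0.21 to 0.48 with an animal left out) and was separate in the apical lobe by a narrow gap. HMGCS1, which makes the precursor of mevalonate, measured 333, 231 and 360.1 in the low animals, against 258, 203 and 251 in the air animals (0.34 ± 0.19, 0.22 to 0.52 with an animal left out) and overlapped.

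KLRK1, an activating receptor of NK and T cells, measured 88.6, 293 and 189 in the low animals, against 104, 105 and 150.1 in the air animals (0.49 ± 0.35, 0.13 to 0.91 with an animal left out), with low animal 31 below all air animals and the other low animals above them. KIT, the stem cell factor receptor that marks mast cells, measured 505, 180.4 and 181 in the low animals, against 184, 139.9 and 234 in the air animals (0.46 ± 0.45, -0.10 with the index fitted, -0.012 to 0.69 with an animal left out), with animal 31 high alone, and the difference was -0.012 without it. GPRC5A, an epithelial receptor, had 3 probe sets that disagreed, at -0.23 ± 0.15 for the brightest (-0.078 with the index fitted) and 1.14 ± 0.39 and 0.088 ± 0.17 for the others. INSIG1, a brake on sterol synthesis, likewise gave 0.21 ± 0.12 and 1.04 ± 0.34.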
